A study of Mus musculus with 48 samples.

Results

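The 10 genes described here encode the NF-κB transcription factors and the proteins that feed back on them: the subunits *Nfkb1*, *Nfkb2*, *Rel*, *Rela* and *Relb*, the inhibitors of the IκB family *Nfkbia* and *Nfkbie*, the nuclear IκB proteins *Nfkbiz* and *Bcl3*, and *Tnfaip3*, a ubiquitin-editing enzyme. They were chosen by symbol among the 24973 genes of the expression table, and each symbol matched 1 row. Messenger RNA was measured in cells of the neurovascular unit of male wild-type C57BL/6 mice aged 12 to 15 weeks. A filament blocked the right middle cerebral artery for 60 min (transient middle cerebral artery occlusion), and brains were taken 24 h after its onset, with 23 h of reperfusion. Microglia (MG), astrocytes (AC), endothelial cells (EC) and pericytes (PC) were sorted by flow cytometry from the stroke (ipsilateral) hemisphere and, as the control, from the opposite (contralateral) hemisphere of the same mice, so the control hemispheres also came from animals that had the occlusion, and no sham group enters these values. Each of the 8 groups held 6 libraries, every library pooled 3 to 4 mice, and mice with a neurological deficit score below a set limit had been left out. The p values of fits within 1 cell type measure the spread between these pools. Without the replicate block described below, these fits take both hemispheres of the same mice as independent.

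NF-κB is a dimer of subunits that share a Rel homology domain. In resting cells the cytoplasmic inhibitors hold the dimers away from the DNA. Ligands such as tumour necrosis factor and interleukin 1 activate the IκB kinase complex, which marks the inhibitors for breakdown, and the freed dimers switch on genes of inflammation and survival. Several of these targets are the brakes themselves: *Nfkbia* and *Nfkbie* are made anew and return the dimers to the cytoplasm, *Tnfaip3* acts on the signalling complexes at the receptors, and *Bcl3* and *Nfkbiz* bind dimers in the nucleus, where they raise some targets and lower others. In the ischaemic brain the pathway is known from both neurons and the glial and vascular cells around them.

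The start regions of the members are shown because feedback in this pathway runs through the κB sites of its own genes. RefSeq windows (build GRCm38.p6, 250 bases before to 50 after the annotated start) covered 7 of the 10 members in 10 windows, and those of *Nfkb1*, *Relb* and *Nfkbiz* were not analysed here. Both strands were searched for the 10-base κB consensus. It was found in 8 of the 10 windows and in 6 of the 7 members, whereas 4.51% of all 32851 windows and 5.14% of all 27025 genes held it. The *Bcl3* window lies at chr7:19822706-19823005 on the minus strand, that of *Nfkbia* at chr12:55492598-55492897 on the minus strand, and that of *Rela* at chr19:5637291-5637590 on the plus strand. They are printed 5′ to 3′ on the strand of the gene with the κB match in capitals: *Bcl3* is the member with the largest stroke change, *Nfkbia* the one with the most RNA per length, and *Rela* the one without a match.
Bcl3: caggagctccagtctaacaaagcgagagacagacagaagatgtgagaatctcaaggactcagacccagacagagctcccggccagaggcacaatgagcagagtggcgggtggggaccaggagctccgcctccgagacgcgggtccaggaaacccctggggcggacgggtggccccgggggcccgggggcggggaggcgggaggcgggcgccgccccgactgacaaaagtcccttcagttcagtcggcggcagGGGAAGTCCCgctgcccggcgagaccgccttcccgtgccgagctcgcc
Nfkbia: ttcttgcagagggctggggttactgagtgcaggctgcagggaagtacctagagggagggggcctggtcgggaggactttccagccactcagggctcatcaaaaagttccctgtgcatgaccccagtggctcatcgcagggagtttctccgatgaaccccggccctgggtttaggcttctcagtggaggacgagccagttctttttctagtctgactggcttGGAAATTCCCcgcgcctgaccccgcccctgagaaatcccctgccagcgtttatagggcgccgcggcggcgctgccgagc
Rela: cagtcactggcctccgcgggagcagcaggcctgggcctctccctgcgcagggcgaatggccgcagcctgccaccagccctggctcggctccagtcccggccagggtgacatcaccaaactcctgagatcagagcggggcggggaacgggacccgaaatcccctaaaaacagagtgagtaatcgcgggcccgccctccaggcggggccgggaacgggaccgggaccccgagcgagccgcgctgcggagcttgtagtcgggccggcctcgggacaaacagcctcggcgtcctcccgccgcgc

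Matches are given as they read on the strand of the gene, also where the consensus itself lies on the other strand, as it does in *Bcl3* and *Nfkbia*. The *Bcl3* match GGGAAGTCCC began at base 3 after the start, and the *Nfkbia* match GGAAATTCCC began 29 bases before it. *Nfkb2* had GGGAATTCCC and GGGGCTTTCC in the window of its first start, and GGAATGTCCC and GGGACTTTCC in that of its second start, and the window of its last start overlapped that one. *Rel* had GGGAAATCCC, *Nfkbie* had GGGGGATTCC, and *Tnfaip3* had GGGACACCCC and GGAAATCCCC in 1 of its 2 windows. The matches GGGAATTCCC of *Nfkb2*, a palindrome, and GGGAAATCCC of *Rel* were found on both strands and overlapped a further match shifted by 1 base. These letters describe the windows and were not tested for binding.

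The values are normalized counts, that is reads per gene divided by a size factor of the library and rounded by the authors to whole numbers. They summed to between 10549900 and 16942165 per library, and 3 reads, the limit that a count of 0 allows, were worth at most 7.1 normalized counts, which covers counting error only. In 12 ipsilateral libraries of PC and MG the sample titles and the column names gave opposite cell types, and the column names were used. Every marker of EC (4 of 4), PC (4 of 4), AC (4 of 4) and MG (10 of 10) was higher in each library of its own column name than in any library of the other cell types. The markers of other cells were not at 0. In EC, PC and AC the summed microglial markers were between 0.268% and 28.2% of the level in the paired microglial library in replicates 1 to 4, and between 0.107% and 0.535% in replicates 5 and 6, so values are also given for these 2 sets of replicates. In AC the 8 oligodendrocyte markers summed to between 49062 and 402282 in the contralateral and between 85692 and 467708 in the ipsilateral hemisphere, beside 57129 to 114614 and 41095 to 121715 for the 4 astrocyte markers. The oligodendrocyte sum was the higher one in 5 of 6 AC libraries on either side, so AC stands for the sorted fraction. Where a gene is lower in such a sorted bulk sample, fewer cells of a type and less RNA per cell cannot be told apart.

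In the contralateral hemisphere most members had their highest level in microglia. The mean was highest in MG for 8 of 10 members, the exceptions being *Relb* with its highest mean in PC and *Bcl3* with its highest mean in EC. Differences between cell types were tested with limma in 1 fit of 48 libraries, and a difference was called where the adjusted p did not exceed 0.05 and the levels differed at least 1.5-fold. Of 60 combinations of member and pair of cell types, 36 were called. All 10 members differed between AC and MG, where 50.7% of all genes did. Between PC and MG 7 members were called (48% of all genes), between EC and AC 7 (49.1%), between EC and MG 5 (41.6%), between EC and PC 4 (34.6%) and between PC and AC 3 (45.4%). The immediate early genes that tissue dissociation induces also differed between these contralateral libraries. Their sums spanned 266629 to 715072 in MG, 317188 to 610180 in PC, 132213 to 356656 in EC and 16659 to 71383 in AC. The part of dissociation in the levels of the members was not tested.

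**Figure D1:**
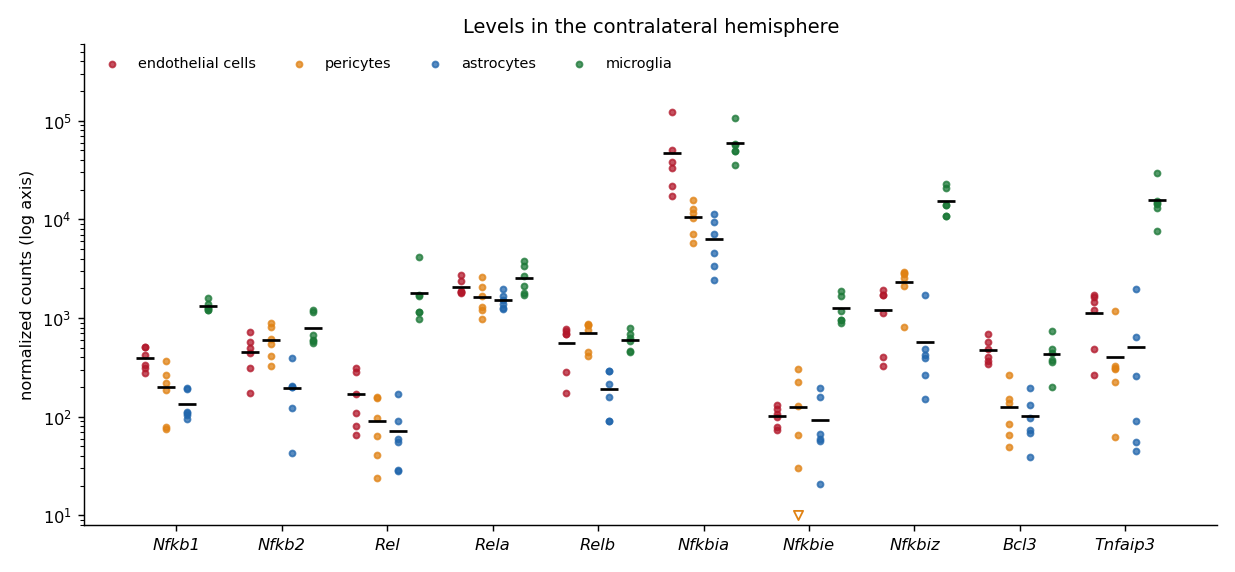
Normalized counts (log axis) of the 10 members in the contralateral hemisphere of the 4 cell types, with 6 libraries per group as points and their mean as a bar. An open downward triangle marks the value of 0 of *Nfkbie* in 1 PC library, drawn at 10. *Nfkb1*, *Rel*, *Nfkbie*, *Nfkbiz* and *Tnfaip3* have their MG values above those of the other cell types in the mean.

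Among the subunits, *Nfkb1*, whose product is processed to the DNA-binding partner of *Rela*, measured 1218, 1260 and 1590 normalized counts (lowest, median and highest of 6 libraries) in MG and 278, 376.5 and 514 in EC. The groups did not overlap, and MG was 3.43-fold above EC (log2 difference 1.78, limma, adjusted p = 1.56e-05). EC in turn was 2.24-fold above PC (adjusted p = 0.00421), while PC and AC did not differ beyond their spread (log2 difference 0.41, adjusted p = 0.323). *Rel*, the subunit best known from immune cells, ranged from 980 to 4189 in MG against 66 to 315 in EC, a 10.9-fold difference (adjusted p = 1.25e-06), and its levels in EC, PC and AC did not differ beyond their spread. *Rela*, the main activating subunit, was the most even member, with means of 2075 ± 383 (SD, n = 6 in each group) in EC, 1647 ± 610 in PC, 1509.5 ± 287 in AC and 2569 ± 858 in MG. Only AC and MG were called as different for it, by 0.72 on the log2 scale (adjusted p = 0.0306). *Nfkb2* and *Relb*, the pair of the non-canonical branch, were both lowest in AC: *Nfkb2* in EC was 2.56-fold above AC (adjusted p = 0.004), *Relb* in EC was 2.86-fold above AC (adjusted p = 0.000273), and EC, PC and MG did not differ beyond their spread for either gene. In smaller sets of replicates the step of *Nfkb1* from EC to PC was not called in replicates 1 to 4 (adjusted p = 0.0533), and those of *Nfkb2* from EC to AC and of *Rela* from MG to AC were not called in replicates 5 and 6 (adjusted p = 0.252 and 0.262).

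Among the feedback inhibitors, *Tnfaip3* showed the widest step between neighbours. It measured 7652, 14420 and 29599 in MG and 267, 1334.5 and 1703 in EC, and MG was 15.7-fold above EC (limma, adjusted p = 1.12e-05). *Nfkbie* in MG was 12-fold above EC (adjusted p = 3.17e-05). *Nfkbiz* differed between all neighbours, with MG 6.87-fold above PC (adjusted p = 2.31e-06), PC 2.23-fold above EC (adjusted p = 0.049) and EC 2.3-fold above AC (adjusted p = 0.0289). The lower steps depended on the replicates: PC and EC were not separated in replicates 1 to 4 (adjusted p = 0.617), and EC and AC were not in replicates 5 and 6 (adjusted p = 0.561), where EC measured 325 and 399 and AC 150 and 491. In replicates 1 to 4 the microglial share multiplied by the MG value of *Nfkbiz* came to between 20.5% and 56.4% of the measured *Nfkbiz* in contralateral EC and to between 32.2% and 92.5% in contralateral AC. *Nfkbia* split the cells into a high and a low pair: its MG mean of 59342 ± 24224 and EC mean of 47224 ± 38789 did not differ beyond the spread (adjusted p = 0.254), EC was 3.79-fold above PC (adjusted p = 8.01e-05), and PC and AC did not differ beyond their spread (log2 difference 0.85, adjusted p = 0.0681). *Bcl3* had a high and a low pair as well, with EC and MG not separated (adjusted p = 0.692) and MG 3.73-fold above PC (adjusted p = 6.64e-06).

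Levels can be set against each other between genes only per length. Per kilobase of annotated exon, *Nfkbia* had the highest normalized counts in every contralateral cell type, with a mean of 29330 in EC, 6559 in PC, 3970 in AC and 36860 in MG. *Rela* came next in EC, PC and AC with 675.5, 536 and 491 per kilobase. In MG *Nfkbiz* came next with 3094, followed by *Tnfaip3* with 2181 and *Rela* with 836. *Rel* was lowest in EC, PC and AC. *Nfkb1* was lowest in MG with 109.8, a place that depends on its length, since its annotated exons add up to 12.061 kb and its longest transcript to 4.149 kb.

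The stroke comparison asked how each cell type of the neurovascular unit responds within a day. Few members passed its test. A member was called regulated where the p adjusted over all genes did not exceed 0.05, the level changed at least 1.5-fold and 1 hemisphere or both had values above 10 in every replicate. Of the 10 members, 1 was called in PC and 1 in AC, in both cases *Bcl3* and upwards. In MG 1 was called, *Nfkb1* and downwards, and none was called in EC with limma. An unadjusted p was under 0.05 for 3 members in EC, 4 in PC, 2 in AC and 2 in MG. Among all genes tested this was so for 1581 of 13242, 2098 of 13597, 1416 of 15264 and 3725 of 13300. Over all genes tested, 0.491% were called in EC, 1.02% in PC, 0.341% in AC and 10.6% in MG, so the single call in MG stands at about the share of all genes there. The median log2 change of the 10 members was 0.67 in EC, 0.59 in PC, 0.69 in AC and -0.38 in MG, beside medians of -0.03, -0.04, -0.06 and -0.18 over all genes tested. The estimate was above 0 for 7 members in EC, 10 in PC, 10 in AC and 3 in MG.

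**Figure D2:**
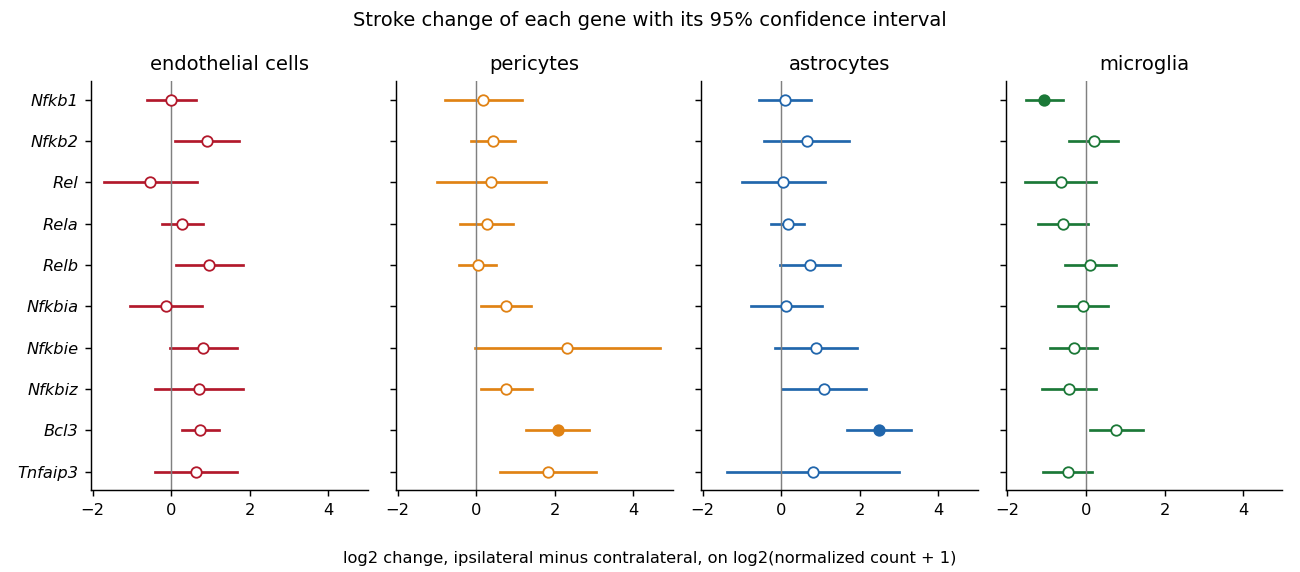
Log2 change from the contralateral to the ipsilateral hemisphere of the 10 members in each cell type (x axis), with the 95% confidence interval of the limma fit on 6 libraries per hemisphere. Filled points passed the rule for regulated genes: *Bcl3* in PC (2.07) and AC (2.49), and *Nfkb1* in MG (-1.07).

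*Bcl3*, a nuclear IκB protein that can act as a coactivator with the *Nfkb1* and *Nfkb2* products, rose in the AC and PC fractions. The gene (ENSMUSG00000053175) lies at chr7:19808462-19822770 on the minus strand of GRCm38. In AC it measured 39, 85 and 197 normalized counts (lowest, median and highest) in the contralateral and 314, 505.5 and 983 in the ipsilateral hemisphere. The 2 groups did not overlap and the ipsilateral library was higher in 6 of 6 pairs, a 5.61-fold change (log2 2.49, SE 0.38, limma, adjusted p = 0.0109). In PC it measured 49, 112 and 265 in the contralateral and 370, 433.5 and 557 in the ipsilateral hemisphere. These groups did not overlap either, with 6 of 6 pairs higher and a 4.2-fold change (log2 2.07, SE 0.37, limma, adjusted p = 0.0214). The call in AC was lost without replicate 2 (adjusted p = 0.082) or replicate 4 (adjusted p = 0.0724). That in PC was lost without replicate 1, 3, 5 or 6 (adjusted p from 0.0545 to 0.0924). The joint fit takes its variance from all 48 libraries as if they were independent, although the cell types share pools. It gave adjusted p values of 8.27e-06 in AC and 0.000321 in PC.

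In EC and MG *Bcl3* started from a higher level and its values overlapped between hemispheres. EC libraries measured 342, 443.5 and 690 in the contralateral and 583, 808.5 and 864 in the ipsilateral hemisphere, with 5 of 6 pairs higher (log2 change 0.74, SE 0.22, limma, adjusted p = 0.167). MG libraries measured 198, 408.5 and 733 against 369, 782.5 and 1080, with 5 of 6 pairs higher (log2 change 0.77, SE 0.32, adjusted p = 0.129). The ipsilateral means of all cell types lay closer together than the contralateral ones: 779 ± 105 in EC, 459.5 ± 79.3 in PC, 541 ± 239 in AC and 734 ± 270 in MG after 477 ± 135, 126 ± 79.4, 101 ± 56.2 and 433 ± 177. Of the exon bases of *Bcl3*, 6.51% overlap a gene annotated on the opposite strand, *Gm16175*, and whether counting used the strand is not given in the sources used here.

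**Figure D3:**
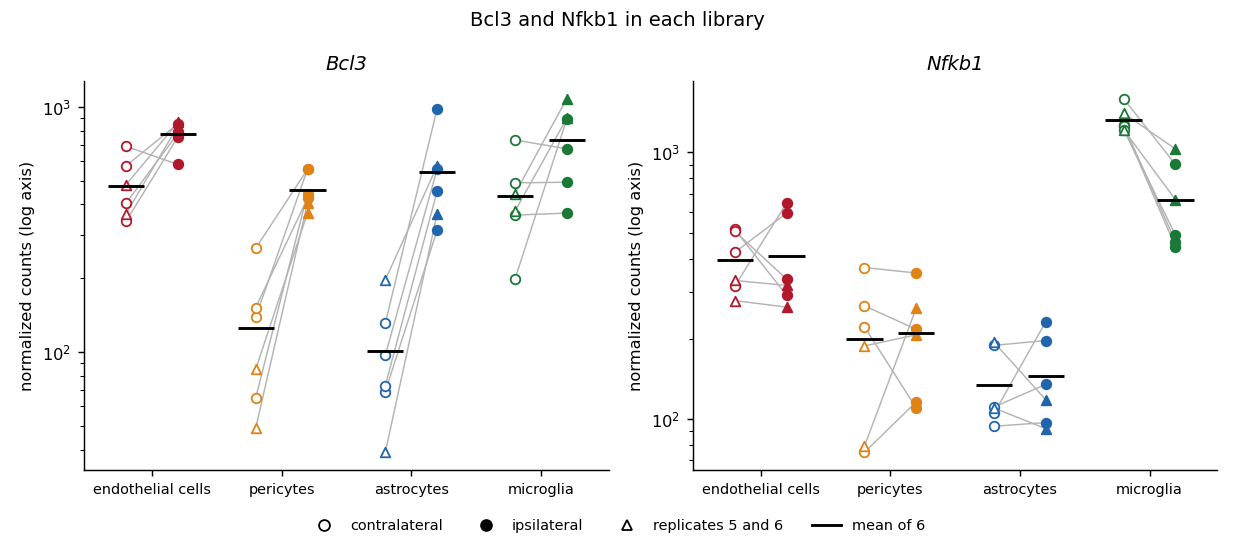
Normalized counts (log axis) of *Bcl3* and *Nfkb1* in each library, open for the contralateral and filled for the ipsilateral hemisphere, with triangles for replicates 5 and 6 and a bar at the mean of 6 libraries. Ipsilateral *Bcl3* lies above all contralateral values in PC and AC, and ipsilateral *Nfkb1* lies below all contralateral values in MG.

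Marker RNA of other cells was measured in the same libraries. Summed neutrophil markers (9 of 10 listed genes in the table) went from 3 to 917 in contralateral AC to 218 to 5197 in ipsilateral AC, and from 0 to 1270 in contralateral PC to 41 to 13139 in ipsilateral PC. Monocyte and macrophage markers (10 of 10) spanned 40 to 1528 and then 306 to 3433 in AC, and 161 to 1418 and then 143 to 11789 in PC. In PC of replicates 5 and 6 the monocyte and macrophage markers went from 400 and 437 (contralateral) to 155 and 143 (ipsilateral). The neutrophil markers went from 53 and 1 to 50 and 155 there, and *Bcl3* from 85 and 49 to 370 and 406. In AC of these replicates the monocyte and macrophage markers went from 40 and 104 to 337 and 306. The neutrophil markers went from 3 and 24 to 218 and 406 there, and *Bcl3* from 39 and 197 to 366 and 574. Of the 9 neutrophil markers, 3 were at 0 in all contralateral PC libraries, and each was above 0 in at least 1 library of AC on either side. Their part in the *Bcl3* result was not tested. For microglial RNA only an estimate is at hand, which assumes that a gene follows the summed microglial markers. It can exceed the measured value, as for *Tnfaip3* in contralateral PC of replicate 3 (575%). The marker sum itself was lower in ipsilateral MG (235890 to 389800) than in contralateral MG (472275 to 559602). The part of microglial RNA in the *Bcl3* result was not tested beyond this estimate. The microglial share of a library multiplied by the *Bcl3* value of the paired MG library came to between 2.58% and 9.68% of the measured *Bcl3* in ipsilateral AC of replicates 1 to 4, and to between 0.836% and 1.21% in replicates 5 and 6. In ipsilateral PC it came to between 3.38% and 56.6% in replicates 1 to 4 and to between 0.458% and 0.682% in replicates 5 and 6. In replicates 5 and 6 alone the log2 change of *Bcl3* was 2.37 in AC (limma, 2 libraries per hemisphere, adjusted p = 0.998) and 2.57 in PC (adjusted p = 0.0547), and in replicates 1 to 4 alone it was 2.55 (adjusted p = 0.0139) and 1.82 (adjusted p = 0.108).

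*Nfkb1* (ENSMUSG00000028163, chr3:135584655-135691546 on the minus strand) fell in microglia. It measured 1218, 1260 and 1590 in the contralateral and 443, 577.5 and 1030 in the ipsilateral hemisphere. The groups did not overlap, 6 of 6 pairs were lower, and the level after stroke was 0.478 of the control (log2 change -1.07, SE 0.22, limma, adjusted p = 0.00711). The call was kept without each replicate in turn. The log2 change was -1.27 in replicates 1 to 4 (adjusted p = 0.0228) and -0.66 in replicates 5 and 6 (adjusted p = 0.137). In the other cell types the log2 change of *Nfkb1* was between -0.01 and 0.18. Other lists moved in the same libraries: the summed microglial markers spanned 472275 to 559602 in contralateral and 235890 to 389800 in ipsilateral MG, with 3 of 10 called lower, and the neutrophil markers spanned 90 to 1070 and then 1575 to 18833. The immediate early genes that tissue dissociation induces summed to 266629 to 715072 and then 176037 to 282443, with 5 of 16 called lower. Of all genes tested, 6.27% were called lower in MG. The part of these lists in the *Nfkb1* result was not tested.

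The other subunits did not pass the test in any cell type. *Nfkb2*, the precursor of the non-canonical DNA-binding subunit, measured 174, 469 and 714 against 309, 817 and 1362 in EC, overlapping and with 5 of 6 pairs higher (log2 change 0.90, SE 0.38, limma, adjusted p = 0.36). *Relb* measured 175, 690.5 and 773 against 445, 1037.5 and 1501 in EC, again with 5 of 6 pairs higher (log2 change 0.97, SE 0.40, adjusted p = 0.349). In AC the *Relb* value was higher in 6 of 6 pairs (log2 change 0.73, adjusted p = 0.562), and in PC it was higher in 3 of 6. Of the exon bases of *Nfkb2*, 18.1% overlap other annotated genes, *AC114539.1* and *Psd*. *Rel* had the widest scatter of the subunits, with paired log2 changes from -3.45 to 2.34 over 24 pairs and 14 of them below 0.

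For *Rela* (ENSMUSG00000024927, chr19:5637483-5648130 on the plus strand) the sets of replicates gave different signs. In MG the ipsilateral values of replicates 1 to 4 were lower than the contralateral ones (log2 change -1.15, limma, adjusted p = 0.045, with 5.95% of all genes called in these libraries), whereas replicates 5 and 6 gave 0.52 (adjusted p = 0.204). In EC replicates 5 and 6 gave a log2 change of 1.00 (adjusted p = 0.0226), replicates 1 to 4 one of -0.08, and all 6 replicates one of 0.28 (adjusted p = 0.717). *Bcl3* was called in replicates 5 and 6 of EC as well (log2 change 1.01, adjusted p = 0.0471) and of MG (1.27, adjusted p = 0.0187), where 3.61% and 5.63% of all genes were called. The fits of replicates 5 and 6 had only 2 libraries per hemisphere, and the sets were formed by the microglial marker sums of the libraries. The difference between the 2 sets of replicates was not tested.

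The plot of paired changes shows how the members varied within each cell type. Among the cytoplasmic inhibitors, *Nfkbia* was higher in the ipsilateral library of 6 of 6 PC pairs without passing the test (contralateral 5699, 11047.5 and 15654, ipsilateral 9447, 18514 and 28076, log2 change 0.75, SE 0.29, limma, adjusted p = 0.236). The mean paired log2 change of *Nfkbia* in PC was 0.98 in replicates 1 to 4 and 0.30 in replicates 5 and 6. The microglial share multiplied by the MG value of *Nfkbia* was set against *Nfkbia* in ipsilateral PC. It came to between 12.2% and 79.1% in replicates 1 to 4 and to between 0.917% and 0.948% in replicates 5 and 6. In the other cell types the log2 change of *Nfkbia* was between -0.13 and 0.13. *Nfkbie* had the largest estimate in PC, 2.32 with an SE of 1.10 (adjusted p = 0.333), which rests on contralateral replicate 3 with a value of 0, and without that replicate it was 1.04 (adjusted p = 0.501). The same product for *Nfkbie* in ipsilateral PC came to between 12.2% and 105% in replicates 1 to 4. In replicates 5 and 6 it came to between 0.987% and 3.00%. In AC *Nfkbie* was higher in 6 of 6 pairs (log2 change 0.90, limma, adjusted p = 0.621).

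**Figure D4:**
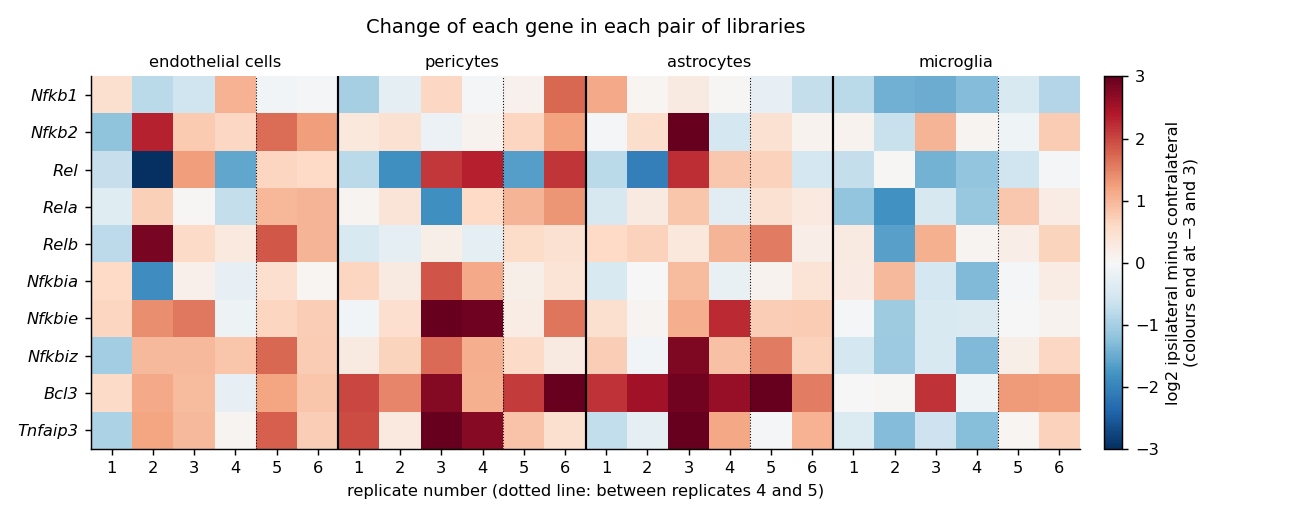
Log2 change from the contralateral to the ipsilateral library of the same replicate for the 10 members (rows) in 24 pairs (columns, 6 per cell type), with colours ending at -3 and 3. *Bcl3* is above 0 in 22 of 24 pairs, and *Nfkb1* is below 0 in all 6 MG pairs.

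*Nfkbiz*, which is needed for a set of late inflammatory genes such as *Il6*, was higher in 6 of 6 PC pairs (819, 2667.5 and 2900 against 2534, 3815.5 and 5454, log2 change 0.76, SE 0.30, limma, adjusted p = 0.25) and in 5 of 6 AC pairs (log2 change 1.09, SE 0.50, adjusted p = 0.53). The groups overlapped in both. The microglial share multiplied by the MG value of *Nfkbiz* was set against *Nfkbiz* in ipsilateral PC. It came to between 10.7% and 82.7% in replicates 1 to 4 and to between 1.35% and 1.45% in replicates 5 and 6. *Tnfaip3* was higher in 6 of 6 PC pairs, from 62, 308.5 and 1169 to 455, 1154 and 2051 (log2 change 1.83, SE 0.57, adjusted p = 0.143, or 1.26 without replicate 3). In MG the estimates of *Nfkbie*, *Nfkbiz* and *Tnfaip3* were -0.32, -0.44 and -0.47, and none passed the test.

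Levels of *Tnfaip3* (ENSMUSG00000019850, chr10:19000910-19015410 on the minus strand) and *Nfkbiz* (ENSMUSG00000035356, chr16:55811375-55838899 on the minus strand) were set beside the microglial marker RNA outside microglia. In contralateral EC *Tnfaip3* lay between 1218 and 1703 in replicates 1 to 4 and at 267 and 490 in replicates 5 and 6, and *Nfkbiz* lay between 1132 and 1930 against 325 and 399. Contralateral PC showed no such step, with *Tnfaip3* at 224, 1169, 62 and 307 in replicates 1 to 4 against 310 and 328, and *Nfkbiz* at 2900, 2863, 819 and 2557 against 2778 and 2119. In contralateral EC the microglial share times the MG *Tnfaip3* value was 24.1% to 53.1% of that measured in replicates 1 to 4. In replicates 5 and 6 it was 3.85% to 12.7%. Immediate early genes in the same sets summed to 201919 to 356656 against 174687 and 132213 in contralateral EC. In contralateral PC they summed to 433977 to 610180 against 408136 and 317188. Their part in the EC step was not tested. The microglial share multiplied by the MG value of *Tnfaip3* came to between 49.0% and 149% of the measured value in ipsilateral PC of replicates 1 to 4 and to between 5.66% and 6.69% in replicates 5 and 6. In ipsilateral AC it came to between 32.4% and 72.9% and to between 57.2% and 150% in these sets. A value near or above 100% is one at which that product alone is as large as the *Tnfaip3* measured in the library. The part of microglial RNA in the stroke changes was not tested beyond these shares.

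**Figure D5:**
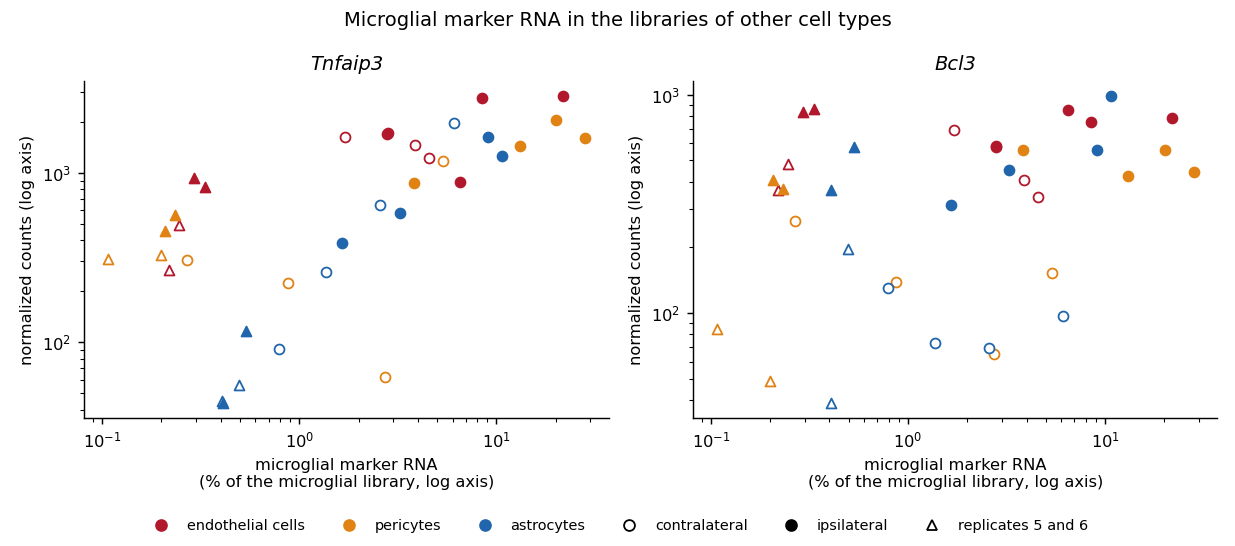
Normalized counts of *Tnfaip3* and *Bcl3* in libraries of EC, PC and AC against the microglial marker RNA of the library as a percentage of the paired microglial library. Within each cell type and hemisphere, replicates 5 and 6 have the least microglial marker RNA. Their *Tnfaip3* values are at or below 928, and *Bcl3* in the ipsilateral libraries of these replicates is between 366 and 864.

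Changes were compared between cell types by interaction terms in the fit of 48 libraries. None of the 60 combinations of member and pair of cell types was called with limma (lowest adjusted p = 0.138), and 12 had an unadjusted p under 0.05. Of all 15003 genes tested, between 817 and 1898 had an unadjusted p under 0.05 per pair of cell types. Over all genes, 0.0267% were called for EC against PC, 0.06% for EC against AC, 0.273% for EC against MG, 0.00667% for PC against AC, 0.727% for PC against MG and 0.293% for AC against MG. The combination with the lowest p was *Bcl3* in AC against MG, a difference of 1.72 on the log2 scale (SE 0.48). The replicate block takes both hemispheres of a replicate number as the same pooled mice. With this block the difference of *Bcl3* between AC and MG was called (limma, adjusted p = 0.0493, with 0.767% of all genes called). So the calls of *Bcl3* in AC and PC and the missing calls in EC do not show a difference between these cell types.

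Averaged over the 4 cell types, *Bcl3* rose 2.86-fold (log2 change 1.52, SE 0.17, limma, adjusted p = 1.41e-08), with 22 of 24 pairs higher. It was the only member called in this fit, in which 11.9% of all genes were called. The cell types were sorted from the same pools, and the fit counts the 48 libraries, or with the block the 24 pairs, as independent. Its p values can therefore be too small. With the replicate block, which called 15.5% of all genes, *Nfkbiz* was called too (log2 change 0.53, adjusted p = 0.0212, from 0.137 without the block), with 18 of 24 pairs higher. *Nfkb2* (log2 change 0.55, adjusted p = 0.0663), *Relb* (0.46, adjusted p = 0.0764), *Nfkbie* (0.93, adjusted p = 0.0722) and *Tnfaip3* (0.70, adjusted p = 0.21) did not pass. Replicates 5 and 6 alone leave few libraries per group, and 9.5% of all genes were called there. The members called in them were *Bcl3* (1.81, limma, adjusted p = 0.00284), *Rela* (0.77, adjusted p = 0.00145) and *Nfkb2* (0.75, adjusted p = 0.0423). *Rela* in replicates 1 to 4 gave -0.34 (adjusted p = 0.225).

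Genes around the members in the pathway were taken from lists of ligands, receptors, kinases, other inhibitors and targets. Without the replicate block 0.491% of all genes were called in EC, 1.02% in PC, 0.341% in AC and 10.6% in MG. The counts without the block below stand beside these shares. Of 12 ligands, 11 were in the table and 7 or 8 tested in each cell type, and 1 was called: *Ltb*, a membrane-bound lymphotoxin, fell in MG from 46.2 ± 17 to 9.33 ± 9.75 (log2 change -2.82, limma, adjusted p = 0.027). The call was lost without replicate 1, 3 or 4 (adjusted p from 0.0714 to 0.113), and with the replicate block *Il33*, an alarmin, was called in AC as well (log2 change 1.59, adjusted p = 0.00414). The block also moved the share of all genes called, to 0.551% in EC, 1.66% in PC, 1.59% in AC and 11% in MG, and the counts with the block below stand beside these shares. Of 17 receptors, 15 or 16 were tested in each cell type. *Tnfrsf1a*, the main tumour necrosis factor receptor, rose in PC from 2520 ± 292 to 4032 ± 529 (log2 change 0.68, adjusted p = 0.0265). *Tnfrsf12a*, the receptor of TWEAK, rose in AC from 435 ± 481 to 2669 ± 1032 (log2 change 3.03, adjusted p = 0.0159). In MG *Cd14*, the lipopolysaccharide coreceptor, rose by 1.80 on the log2 scale (adjusted p = 0.00229) and *Tlr1* by 0.85 (adjusted p = 0.0148), while *Tlr7* fell by 0.72 (adjusted p = 0.0392, and 0.0607 with the replicate block). With the block 3 receptors were called upwards in PC and the same 3 in AC, *Tnfrsf1a*, *Tnfrsf12a* and *Cd14*. *Cd14* in ipsilateral PC lay between 4363 and 37024 in replicates 1 to 4 and at 297 and 304 in replicates 5 and 6, and the microglial share multiplied by the MG value of *Cd14* came to between 96.6% and 188% and to between 50.4% and 71.7% of it. In ipsilateral AC that product came to between 93.2% and 141% and to between 64.8% and 77.8% of the measured *Cd14*. Of the calls without the block, that of *Cd14* held without each replicate, that of *Tlr1* was lost without replicate 1, 3 or 6 (adjusted p from 0.0612 to 0.0655), that of *Tnfrsf1a* without any replicate but 1 (0.0652 to 0.126), that of *Tnfrsf12a* without any but 6 (0.0576 to 0.141) and that of *Tlr7* without any but 1.

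Of 28 genes of the IκB kinase complex and its adaptors, 2 were called, both lower in MG. There 10.6% of all genes were called, and 6.27% were called lower. The 2 genes were *Map3k14*, the kinase of the non-canonical branch (log2 change -1.14, limma, adjusted p = 0.039), and *Bcl10*, an adaptor of immune receptors (-0.60, adjusted p = 0.0427). Both calls were lost with any 1 replicate left out (adjusted p from 0.0535 to 0.15 and from 0.0578 to 0.103) and with the replicate block (0.055 and 0.0638), which called *Myd88*, an adaptor of Toll-like receptors, in AC instead (log2 change 0.96, adjusted p = 0.0403). Of 20 other inhibitors, 1 was called in MG, beside the same 10.6% of all genes, and none in the other cell types. It was *Tnip3*, a partner of the *Tnfaip3* protein, which went from 6.33 ± 9.75 to 60.3 ± 31.2 (limma, adjusted p = 0.00843, and 0.0522 without replicate 3). With the replicate block *Peli1*, a ubiquitin ligase, was called lower in MG as well (log2 change -0.91, adjusted p = 0.0343). The median log2 changes of these 2 lists lay between -0.35 and 0.24 in the 4 cell types.

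Textbook targets outside the members were called in each of the 4 cell types. Of 35 listed, 33 were in the table and between 29 and 32 tested, and the numbers called up and down were 1 and 0 in EC, 4 and 0 in PC, 2 and 0 in AC and 11 and 2 in MG. With the replicate block they were 2 and 0, 6 and 0, 10 and 0, and 10 and 3, while the calls over all genes went from 65 to 73 in EC, from 139 to 226 in PC, from 52 to 242 in AC and from 1404 to 1468 in MG. *Csf3*, the granulocyte growth factor, rose in EC from 88 ± 107 to 1199 ± 898 (log2 change 4.43, limma, adjusted p = 0.0398). In PC the cytokine *Il6* rose from 230 ± 139 to 2605 ± 1585 (3.5, adjusted p = 0.00379), *Lcn2* by 2.58 (adjusted p = 0.0153) and the acute-phase gene *Saa3* by 6.54 (adjusted p = 0.0158). *Ccl5* was 0 in every contralateral PC library and 43.8 ± 39.5 in the ipsilateral ones (adjusted p = 0.0125). In AC *Lcn2*, an iron-trafficking protein of reactive astrocytes, rose from 306 ± 224 to 3664 ± 1274 (3.89, adjusted p = 0.00379), and the stress gene *Gadd45b* rose by 2.68 (adjusted p = 0.0393). In MG *Ptgs2*, the inducible cyclooxygenase, rose from 791 ± 323 to 2938 ± 517 (1.96, adjusted p = 0.000164), and *Sod2*, *Lcn2* and *Ccl2* rose by 1.36, 3.72 and 1.84 (adjusted p = 0.00213, 0.00287 and 0.00395). The calls of *Il6* in PC, *Lcn2* in AC and MG, and *Ptgs2*, *Sod2* and *Ccl2* in MG held without each replicate in turn. The call of *Csf3* was lost without any 1 replicate (adjusted p from 0.0584 to 0.164), that of *Gadd45b* without any but replicate 6 (0.0699 to 0.248), those of *Ccl5* and *Lcn2* in PC without replicate 3, 4 or 6 (0.0707 to 0.0811) and that of *Saa3* without replicate 4 or 5 (0.0516 to 0.0925). The 8 targets that the block added in AC were *Saa3*, *Ccl2*, *Icam1*, *Ccl7*, *Ptgs2*, *Cxcl1*, *Csf1* and *Il6*, with adjusted p between 0.00687 and 0.0474. In EC summed neutrophil markers spanned 1 to 1612 in the contralateral and 92 to 9871 in the ipsilateral hemisphere, and monocyte and macrophage markers 162 to 1222 and then 346 to 7880. In MG the monocyte and macrophage markers spanned 445 to 2446 and then 2307 to 6377. The part of these cells in the calls of *Csf3* and the other targets was not tested. The median log2 change of the targets tested was 0.96 in EC, 1.91 in PC, 1.30 in AC and 0.52 in MG.

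As a description, the paired stroke change of each member over the 24 pairs was compared with that of 11842 genes whose normalized counts averaged 50 or more over the libraries. The pairs share pools of mice and cell types, so these correlations carry no test. After the mean change of each cell type was taken out, r of the 30 genes named lay between 0.535 and 0.931 instead of 0.693 and 0.941. *Tnfaip3* was most like *Nfkbid*, which encodes another nuclear IκB protein (Pearson r = 0.902), followed by *Cnr2* (0.831) and *Nlrp3* (0.827). *Nfkbie* was most like *Pfkfb3* (0.941), an activator of glycolysis, then *Sptlc2* (0.899) and *Pnpla7* (0.89). *Nfkbiz* was most like *Rnf19b* (0.818) and the immediate early genes *Egr1* (0.808) and *Ier2* (0.804). *Rela* was most like *Dlgap4* (0.911), *Pptc7* (0.906) and *Jund* (0.888), and *Relb* like *Prrc2a* (0.853), *Spryd3* (0.852) and *Mgrn1* (0.847). *Nfkbia* was most like *H2-K1* (0.863), a class I histocompatibility gene, *Ctsh* (0.851) and *Rnase4* (0.829). *Rel* was most like *Ccl6* (0.783) and the neutrophil gene *S100a8* (0.765), then *Ptpn18* (0.762). *Nfkb2* was most like *Canx* (0.788), *Eng* (0.773) and *Emc10* (0.759), and *Nfkb1* like *Ica1l* (0.742), *Phc2* (0.73) and *Fbxw7* (0.722). *Bcl3* was most like *Dnajb1* (0.736), a heat shock protein gene, *Gm7694* (0.697) and *Tle1* (0.693), and within cell types these values were 0.535, 0.576 and 0.537. Between members the highest r was that of *Nfkbiz* with *Tnfaip3* (0.784) and the lowest that of *Relb* with *Nfkbia* (-0.552).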

How the data were processed

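The authors sorted the cells, made libraries with SMART-Seq HT from picogram amounts of RNA, trimmed the reads with Trimmomatic 0.38, aligned them to GRCm38 (mm10) with STAR 2.6.1d and counted them on genes with featureCounts 1.6.3, without reads that overlapped several genes or mapped to several places. The deposited values are DESeq2 1.18.1 normalized counts rounded to whole numbers, treated here as a score and not as raw counts, so the count tests that had been planned were not run. Every column was matched to a sample by its name. For 12 ipsilateral PC and MG libraries title and column name disagreed, and the column name was followed.

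Hemispheres were compared within each cell type with limma 3.58.1 (lmFit, eBayes with a trend, R 4.3.3) on log2(normalized count + 1), for genes averaging 10 or more, two-sided, with Benjamini-Hochberg adjustment over all genes tested. The scale understates changes of low genes. Except where the replicate block is named, these fits were unpaired and took both hemispheres of a pool as independent. Cell types, interactions and the mean change were tested in 1 fit of 48 libraries. That fit has no term for the pool and counts the libraries as independent, although the cell types were sorted from the same pools. On simulated data the unpaired fits in EC, PC, AC and MG recovered 63%, 76.5%, 72% and 94% of genes changed by a log2 of 2. Of those changed by 1 they recovered 18%, 33%, 29% and 60%. With the replicate block the rates were 31%, 65.3%, 63% and 89%, and 3%, 19%, 17% and 51%. The interaction of EC with MG recovered 57.9% and 13.6%, with 38 unchanged genes called. That of AC with MG recovered 55.3% and 14.3%, with 11 called. Whether these rates hold for the measured libraries, with their shared pools and RNA of other cells, was not tested. Same-numbered libraries of both hemispheres were taken to come from the same pooled mice, which the sample labels do not state. The pairs and the replicate block rest on this. Deviations of same-numbered libraries from the group means had a mean correlation of 0.207, 0.209, 0.375 and 0.115 in EC, PC, AC and MG. For other numbers it was -0.037, -0.042, -0.075 and -0.022. Summaries and plots used Python 3.11.15, pandas 2.3.3, numpy 2.4.6 and matplotlib 3.10.9.

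The members and lists were chosen with earlier results of these data known. All members are named, and a gene of a list is named where it was regulated, up to the 4 with the smallest adjusted p per list and cell type. The 3 genes most like each member by r are named. Genes called only with the replicate block were named after their values were seen. Alternatives were pseudocounts of 0.1 and 10, a filter at 50 or none, the replicate block, rescaling by median-of-ratios, each replicate left out, replicates 1 to 4, replicates 5 and 6, the joint fit, and the adjusted p alone.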

Additional observations from a re-analysis of the deposited data

Results flagged for a closer look

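In 8 of 80 groups of 6 libraries the highest value stood apart from the others by Dixon's test at its 95% level, on unlogged normalized counts. Of these, 5 were in replicate 2, 2 in replicate 4 and 1 in replicate 5. The chance rate of about 1 in 20 groups holds for normally distributed values, which unlogged counts need not be. The 8 groups are therefore not set against that rate, and log2 values were not put to this test. *Nfkbia* reached 122588 normalized counts in contralateral EC of replicate 2 (others 17078 to 50359), 106124 in contralateral MG of replicate 4 (others 36001 to 57872) and 112851 in ipsilateral MG of replicate 2 (others 39344 to 58143). *Tnfaip3* reached 1169 in contralateral PC of replicate 2 (others 62 to 328), 1965 in contralateral AC of replicate 2 (others 45 to 645) and 29599 in contralateral MG of replicate 4 (others 7652 to 15411). *Nfkbiz* reached 1727 in contralateral AC of replicate 2 (others 150 to 491), and *Rel* reached 4189 in contralateral MG of replicate 5 (others 980 to 1710). The stroke change of *Bcl3* differed between AC and MG by 1.72 on the log2 scale in the fit with the replicate block (limma, adjusted p = 0.0493, against 0.138 without it).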

How the results depend on the processing

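The numbers of members called changed as follows. In replicates 5 and 6 alone there were 2 in EC, 0 in PC, 0 in AC and 3 for the mean over cell types, and in replicates 1 to 4 alone 0 in PC and 2 in MG. These sets have fewer samples. Without each replicate in turn the number was 0 to 1 in PC, 0 to 1 in AC and 1 to 2 for the mean over cell types, where the added member was *Nfkb2* without replicate 1 (adjusted p = 0.0328) and *Relb* without replicate 2 (adjusted p = 0.0393). The fit with the replicate block gave 1 for the differences of change between cell types and 2 for the mean over cell types, and it changed no other call of a member's stroke change. A pseudocount of 10 gave 2 for the mean over cell types, with *Nfkbie* added (log2 change 0.73, adjusted p = 0.0371). The number of level differences between cell types stayed between 33 and 40 under its alternatives. Of 794 values of 51 single results, 734 kept their direction and side of the threshold, and 39 of 19 results, none of which was called with all 6 replicates, changed sign. The cause was not tested. In replicates 5 and 6 alone these were the log2 changes of *Nfkb1* in AC (-0.48), *Rel* in EC (0.62) and over the mean of cell types (0.16), *Nfkbia* in EC (0.28) and, in MG, *Rela* (0.52), *Nfkbia* (0.0843), *Nfkbie* (0.0583), *Nfkbiz* (0.39) and *Tnfaip3* (0.38). In replicates 1 to 4 alone they were *Nfkb1* in EC (0.0273) and PC (-0.19), *Rela* in EC (-0.0818), PC (-0.19) and over the mean (-0.34), and *Relb* in PC (-0.20) and MG (-0.0506). Rescaling turned *Nfkb1* in EC (0.0193). With each replicate left out, sign changes came within the ranges of *Nfkb1* in EC (-0.21 to 0.16), PC (-0.12 to 0.42) and AC (-0.12 to 0.25), *Rel* in EC (-0.89 to 0.0438), PC (-0.00729 to 0.83), AC (-0.38 to 0.47) and over the mean (-0.43 to 0.14), *Rela* over the mean (-0.13 to 0.13), *Relb* in PC (-0.0719 to 0.13) and MG (-0.0863 to 0.45), and *Nfkbia* in EC (-0.28 to 0.22), AC (-0.031 to 0.25) and MG (-0.29 to 0.17). Depth limits low values, since 3 reads are worth at most 7.1 normalized counts.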
